A study of Mus musculus with 1111 samples.

Results

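Plasma low microglia are the brain microglia sorted for a low, rather than no or high, signal of labelled plasma protein. They were chosen by title (plasma intensity low), matched by well and TH number to the count tables, and kept with at least 50000 reads and at least 500 genes with a read. Of the cells labelled plasma low 96.61% were matched to a column and 91.41% passed, spread over TH 1, TH 2 and TH 3 as 33.62%, 33.33% and 33.05%. They make up 35.56% of the 987 passing cells of the whole series (1111 labelled and 1045 matched), in which plasma none cells are 35.06% and plasma high cells 29.38%. All groups came from brains of 3-month-old mice injected 20 hours earlier with plasma proteins that carried the amine-reactive dye NHS-Atto647N, and all cells were processed by Smart-seq2, a plate method that sequences the full length of transcripts from 1 cell per well. The labels give no strain, sex, genotype or animal, and they do not say what a TH number is. Each group is therefore 1 sample of cells, no p-value is given, and each SD is taken over the 3 TH numbers (n = 3) and says nothing of animals. In every TH number the plasma low cells sat in columns 9 to 16 of the plate and the other groups in other columns, so plate position and group cannot be told apart.

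Microglia are the resident macrophages of the brain parenchyma. They survey tissue through receptors for purines, chemokines and lipids, take up debris and protein by endocytosis and phagocytosis, and digest it in lysosomes with cathepsins and glycosidases. They are the main source of complement C1q in the brain and depend on Csf1r signalling and on transcription factors such as Spi1 (PU.1), Irf8 and Sall1.

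The plasma low cells held 98868490 reads in genes, from 53006 to 1287529 a cell, and 500 to 3440 genes a cell. The median number of genes per cell was 2213 in TH 1, 1768 in TH 2 and 2016.5 in TH 3. TH 2 had the most reads per cell, with a median of 359773, while TH 1 had 194548 and TH 3 198289, and the fewest genes. The mitochondrial genes took a median of 0.878%, 0.857% and 0.721% of a cell's reads in TH 1, TH 2 and TH 3. Thinned to an equal 50000 reads, a plasma low cell had a median of 2003, 1615 and 1808.5 genes in the 3 TH numbers. Plasma none cells had 1603, 1452 and 1551, and plasma high cells 1873, 1658.5 and 1695. Plasma low exceeded plasma none in each TH number at that depth, while the order of plasma low and plasma high changed between TH numbers.

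The cells carried microglia markers and almost no markers of other cell types. Csf1r, the receptor for the survival factors CSF1 and IL-34, was read in 100% of the cells, P2ry12 and Cx3cr1 in 99.72% each, and Tmem119 in 98.58%. Every cell had at least 3 of the 4 markers. Tmem119, a surface protein that separates microglia from other macrophages, had a CPM of 3913 in TH 1, 4357 in TH 2 and 3922 in TH 3, and Csf1r had 5456, 6615 and 7123 (CPM is a gene's share of a cell's reads in genes, scaled to the customary total and averaged over cells). Both were close across the sets of wells, with Csf1r lowest in TH 1. No plasma low cell had 3 or more markers of any of 9 other cell types, which allows a share of up to 0.855% (3 cells of the total, as for each count of 0 here, counting error only). None of the 6 neutrophil and none of the 8 lymphocyte markers had a read. Single markers did occur: 53 cells (15.1%) had a read of at least 1 of the 6 oligodendrocyte markers, with Mag in 6.84% and Mbp in 6.27% of cells, and 31 cells (8.83%) had an endothelial marker, mostly Pecam1 (7.69%). Their part in any result was not tested.

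The most abundant transcripts encode secreted and lysosomal proteins, complement C1q and actin regulators. Levels between genes are given as TPM, reads per kb of exon scaled to the same total in each cell and averaged over cells. Cst3 (chr2:148871722-148875692, minus strand, mm10), which encodes the secreted cysteine protease inhibitor cystatin C, was highest, with 62522 TPM in TH 1, 50892 in TH 2 and 54276 in TH 3 (mean 55897 ± 5982). Single cells ranged from 3537 to 109902 CPM of Cst3 around a median of 21495.

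Lysosomal proteases were also among the leading genes. Ctss, the cysteine protease cathepsin S, stood at 17847 ± 2140 TPM, Ctsd, the aspartic protease cathepsin D, at 14815 ± 1028, Lgmn, the asparagine endopeptidase legumain, at 8490 ± 1266, and Ctsz at 4256 ± 380.9. The 3 chains of C1q, the molecule that starts the classical complement pathway, were at 17652 ± 706 for C1qb, 8534 ± 445 for C1qa and 6389 ± 352.8 for C1qc. Neighbours in this order lay within their spread in several places: Ctss and C1qb differed by less than 1 SD of Ctss, as did C1qa and Lgmn.

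The receptors were led by P2ry12, which senses ADP, at 11226 ± 609 TPM (10527, 11641 and 11511 in TH 1, TH 2 and TH 3). Gpr34, a receptor for lysophosphatidylserine, followed at 6651 ± 345.9, then Tmem119 at 5288 ± 416, Cx3cr1, the fractalkine receptor, at 4754 ± 186.8, and Csf1r at 3383 ± 550. Cd81, a tetraspanin, was at 5590 ± 582 and Tyrobp, the adaptor that signals for Trem2, at 3753 ± 659. Among housekeeping genes Actb (beta-actin) was at 11999 ± 1186 TPM, B2m, the light chain of MHC class I, at 8351 ± 900, mt-Co1 at 6746 ± 631 and Eef1a1, a translation elongation factor, at 3623 ± 224.2.

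Tmsb4x, which binds actin monomers, differed most between the sets of wells, relative to its mean, among the leading genes, with 12235 TPM in TH 1, 6915 in TH 2 and 9028 in TH 3. Malat1, a nuclear long non-coding RNA, was also uneven, at 4573, 2641 and 4042 TPM. Both were lowest in TH 2. By CPM, which does not divide by length, Malat1 was among the 10 largest genes at 8777 ± 2491 CPM, below Cst3 (24089 ± 3379), Ctsd (11607 ± 1011), Actb (10674 ± 1318) and P2ry12 (9477 ± 310). The 10 largest genes took a median of 10.9% ± 0.82 of a cell's reads and the 100 largest 31.1%. For the 10 largest the share was 10.3% among plasma none and 11.2% among plasma high cells, differences smaller than the SD over TH numbers in plasma low.

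**Figure D1:**
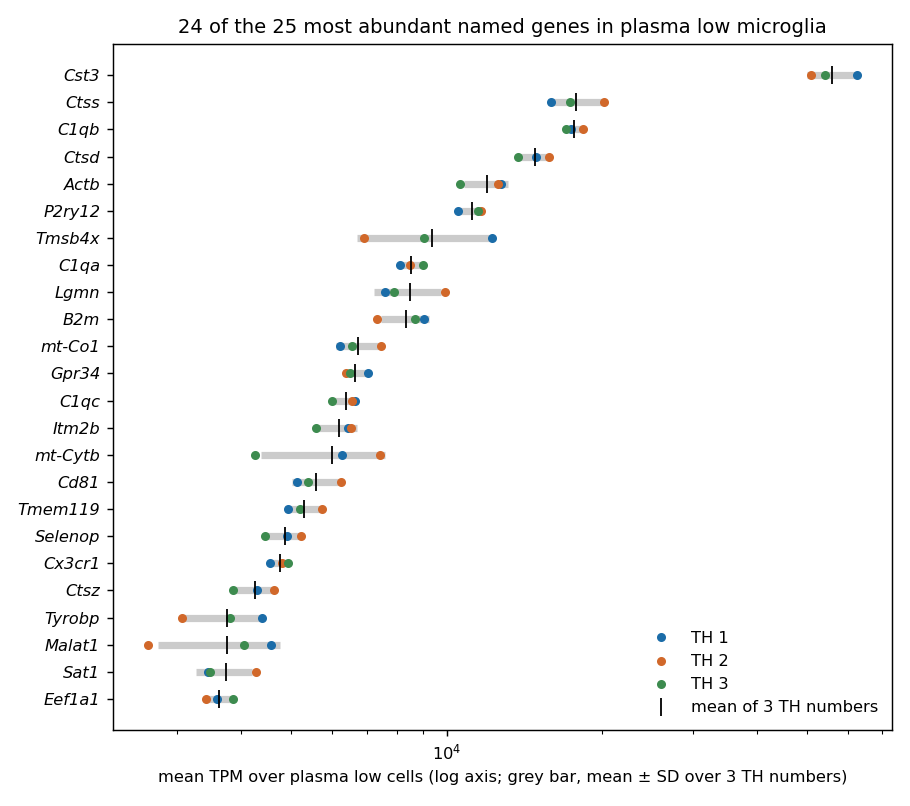
Mean TPM of 24 of the 25 most abundant named genes in plasma low cells, on a log axis, with 1 point for each TH number, a black tick for their mean and a grey bar for ± SD (n = 3). Cst3 stands highest at 55897 TPM, and the points of Tmsb4x, mt-Cytb and Malat1 are the most spread.

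Few genes were read in every cell. Of 15793 genes with a read in any plasma low cell, 17 were read in 100% of cells, 28 in at least 99%, 110 in at least 90%, 733 in at least 50% and 5939 in at least 10%. Genes in the following lists are described by the share of the cells with at least 1 read.

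The homeostatic list, genes that mark microglia of the healthy brain, was detected in most cells throughout: all 26 members were read in at least 50% of cells, 15 of them in at least 90%, with a median of 95.6%. Cst3, Csf1r and Selplg, a ligand for selectins, were among those read in 100%. Siglech, a lectin of the Siglec family, was read in 97.4% and P2ry13, a second ADP receptor, in 95.4%. At the low end were Crybb1 in 54.4%, Ecscr in 61.5% and Gpr183, an oxysterol receptor, in 62.1%. A cell had a median of 23 of the 26 genes and at least 11.

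The transcription factors that define microglia were lower and detected in fewer cells. Of 17 members, 9 were read in at least 50% of cells and none in 90%. Maf was read in 88.03%, Bhlhe41 in 86.9%, Irf8 in 85.5%, Mef2c in 82.3%, Spi1 in 74.6% and Sall1, which is specific to microglia among brain cells, in 63.5%. The median cell had reads of 9 of these factors.

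Proximal parts of the Trem2 pathway were near universal and its kinases were not. The adaptors Tyrobp (99.2%) and Fcer1g (97.7%) and the receptor Trem2 (96.6%, 659 ± 31.6 TPM) were read in nearly every cell. Downstream, the phosphatase Inpp5d was read in 74.1%, Plcg2 in 33.6% and the kinase Syk in 25.4%. Among complement genes only the 3 C1q chains were read in 100%. Itgam, a chain of complement receptor 3, was read in 77.8%, whereas C3 was read in 1 cell (0.28%), C4b in 0.57% and Itgax in 1.43%.

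Lysosomal genes were broadly detected: 27 of 39 members were read in at least 50% of cells and the median was 78.3%. Ctss and Ctsd were read in 100%, Lgmn in 99.7%, and Laptm5, a lysosomal membrane protein, and Ctsb in 99.4% each. The proton pump subunit Atp6v1a (20.2%) and the calcium channel Mcoln1 (13.4%) were at the low end.

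The sort was made on plasma protein uptake, so the genes of endocytosis and of receptors for plasma proteins were listed apart. Of 33 members 10 were read in at least 50% of cells, none in 90%, and the median was 25.6%. The Fc gamma receptor Fcgr3, which binds immunoglobulin G complexes, was read in 83.8% (1026 ± 76.1 TPM), the clathrin light chain Clta in 76.6%, Cd14 in 75.8% (1029 TPM), the clathrin adaptor Picalm in 72.9% and the large scavenging receptor Lrp1 in 63.8% (31.03 ± 4.28 TPM). Fcgrt, the neonatal Fc receptor that recycles albumin and immunoglobulin G, was read in 27.6%. The transferrin receptor Tfrc was read in 1.99% of cells, and the scavenger receptors Msr1 in 1.14% and Cd36 in 0.57%. No member of this list was called variable between cells by the rule given further on.

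Genes of the disease-associated microglia signature were split. Members that are also general lysosomal, iron storage or surface genes were read in nearly all cells, such as Ctsd (100%), Ctsb (99.4%), Ftl1 (98.9%) and Cd9 (95.4%). Lyz2 (lysozyme) was read in 45.6% and Apoe, the lipid carrier, in 15.4%, whereas Itgax and Lgals3 were read in 1.43% each and Spp1, Gpnmb and Ch25h had no read. Lpl, the lipoprotein lipase, was read in 9.69% of cells, and 1 cell of TH 1 with 22840 CPM held 67.8% of its summed CPM, so the mean CPM of Lpl of 281.9 in TH 1 (TH 2 had 39.2 and TH 3 had 56.2) rests on that cell.

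Transcripts of Cd74 and of the class II chains were read in few cells. Cd74 was read in 5.13% of cells, H2-Ab1 in 2.28%, H2-Eb1 in 0.28% and H2-Aa in 0.28%, while H2-DMa and H2-DMb1, whose product loads peptides onto class II, were read in 57.6% and 42.5%. Of the class I genes B2m was read in 99.2%, H2-D1 in 84.9% and H2-K1 in 70.1%.

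Immediate early genes, which rise when microglia are stressed during isolation, were low. Fos, Fosb, Egr3, Hspa1a and Hspa1b had no read in any cell, Egr1 was read in 0.57% and Dusp1 in 1.99%. Rhob (80.9%), Btg2 (53.6%), Junb (47.6%) and Klf6 (39.9%) were the most widely read of the 28 members. Inflammatory genes were also sparse, with none of 27 in 50% of cells: Bcl2a1b was read in 42.7%, Nfkbia in 37.04%, Cd83 in 35.3%, Il1a in 19.9%, Tnf in 1.14% and Il1b in 0.28%. Of the proliferation list Mki67 and Top2a were read in 1 cell each and 4 of 20 members in none.

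Of glycolysis genes Gapdh was read in 82.9% of cells and Hk2, a hexokinase, in 74.1%. Ribosomal protein genes were read in at least 50% of cells for 74 of 84 members, led by Rps29 (97.7%), at low read numbers (median 99.7 CPM). The mitochondrial genome was read unevenly along its length: mt-Co1 in 98.3% of cells, mt-Cytb in 94.9% and mt-Nd2 in 90.3%, but mt-Co3 in 1.43%, mt-Atp6 in 0.28%, and mt-Co2 and mt-Atp8 in none. Xist was read in 0 cells, which allows a share of up to 0.855%, and genes of the Y chromosome in 54.99% (exact Clopper-Pearson 95% interval 49.6% to 60.3%), with Eif2s3y in 28.2%, Ddx3y in 22.8%, Uty in 12.3% and Kdm5d in 8.55%. Ddx3y was read in 12.5% of the 25% of cells with the fewest genes and in 28.4% of the 25% with the most.

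**Figure D2:**
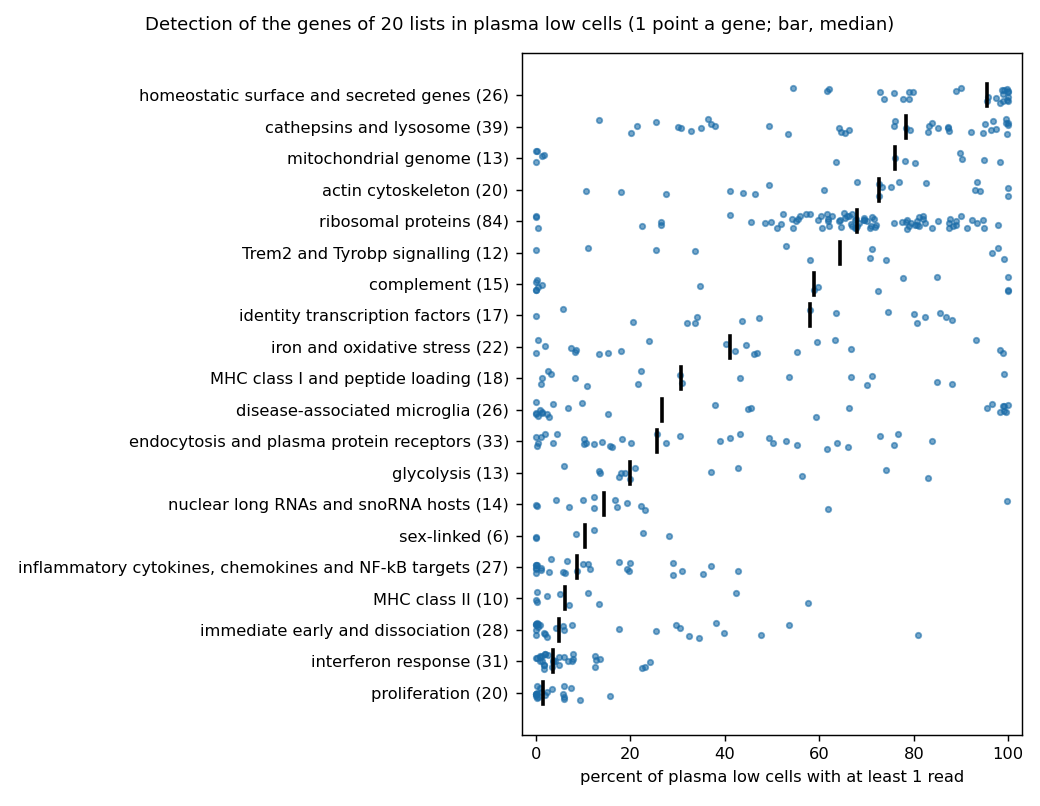
Share of plasma low cells with at least 1 read for each gene of 20 lists, with 1 point a gene and a black bar for the list's median, and the number of genes in parentheses. The homeostatic list has a median of 95.6%, while the interferon list has a median of 3.70% and no member above 50%.

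Variation between cells was measured against genes of like level. The squared coefficient of variation of CPM was divided by its running median over genes of similar mean, and a gene was called variable where this ratio was at least 2 in 3 of 3 TH numbers. Of 5352 genes with a mean of at least 20 CPM and a read in at least 10% of cells, 2.07% were called, 99 of them genes with a proper name. Long transcripts were more frequent among them than among all tested genes. Their median exon length was 6612 bases against 4575 for all tested genes, and 3.53% of genes with more than 6133 exon bases were called against 0.67% of those with up to 3385. Called genes were read in a median of 19.1% of cells, close to the 21.6% of all tested genes.

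Among called genes with a proper name the largest ratios belonged to Mtx3, a mitochondrial outer membrane protein (4.79, median of the TH numbers), Gbp7, an interferon-inducible GTPase (4.54), Hnrnpa0, an RNA-binding protein (4.38), Med13, a subunit of the Mediator kinase module (4.13), and Gsdme, a pore-forming gasdermin (3.84). Mtx3 was read in 10.5% of cells and reached 5358 CPM in 1 cell, while Gbp7 was read in 19.7% and reached 8528. Gbp7 had ratios of 3.35, 4.54 and 5.31 in TH 1, TH 2 and TH 3, and Hnrnpa0 had 3.20, 5.34 and 4.38. The ratio of Mtx3 was less even, at 6.07, 2.02 and 4.79. Other called genes with high ratios were the deSUMOylase Senp7 (3.79), the helicase Chd8 (3.24), Nf1, which restrains Ras (3.24), Nmt2, an N-myristoyltransferase (3.66), and the Notch coactivator Maml2 (3.15). Uty, on the Y chromosome, had a ratio of 3.21.

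Only 9 called genes were read in at least 50% of cells, and Maf was the most widely read. Maf, a transcription factor that drives macrophage identity, had 917 CPM in TH 1, 1244 in TH 2 and 1354 in TH 3, with ratios of 2.75, 3.00 and 3.84. The median cell had 368.2 CPM of Maf, 10% of cells were above 3349 and the top cell had 15798. The others were the splicing factors Mbnl1 (84.3% of cells, ratio 2.56) and Luc7l2 (50.1%, 2.70), Nav3 (66.7%, 2.22), the translocon component Ssr1 (62.96%, 2.34), the scaffold Frmd4b (59.5%, 2.58), the long RNA Dleu2 (53.3%), the chaperone partner St13 (52.4%, 2.57) and Cebpg, a leucine zipper factor (51.3%, 2.30).

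Among the 5 least variable named genes for their level were Rnaset2a (0.080), Tmem202 (0.080), Rps29 (0.095) and Grtp1 (0.114). Rnaset2a, Tmem202 and Grtp1 each overlap another gene, so part of their reads may belong to a neighbour. No ribosomal protein gene of 81 tested was called, and their median ratio was 0.27. Among the lists only Maf and Uty were called. The homeostatic genes had a median ratio of 0.54, whereas Apoe had a ratio of 3.74 but was not called in 3 of 3 TH numbers. Of these calls, 47 (42.3%) were also called in plasma none, which is 40.2% of the calls there, and 42 (37.8%) in plasma high, 45.2% of the calls there. The call rate was 2.45% in plasma none and 1.73% in plasma high.

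**Figure D3:**
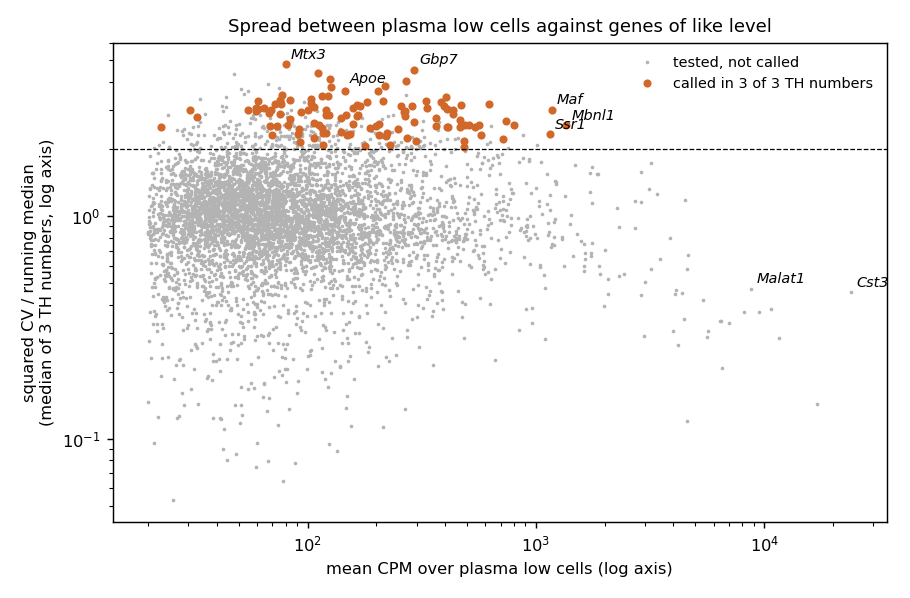
Squared coefficient of variation over its running median against mean CPM over plasma low cells, both on log axes, for the 5352 genes tested. Orange points are the 2.07% of genes called in 3 of 3 TH numbers, the dashed line is a ratio of 2, and Maf stands highest among genes near 1000 CPM while Cst3 and Malat1 lie below the line.

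Gene pairs that varied together inside the group were sought with Pearson's r over cells of log2(CPM + 1), after regression on the number of genes detected. A pair was called where r was at least 0.3 in 3 of 3 TH numbers. Of 4267581 pairs among 2922 genes 0.0078% were called, and the median r over all pairs was 0. All points share their plates, and no p-value is given. Most called pairs were overlapping genes: 92.8% of them shared genomic sequence, such as the Ugt1a genes, which share their last exons, and their r counts the same reads under both names. A further 4 pairs shared a stretch of 50 identical bases, among them Tuba1b with Tuba1c and Rplp2 with Wdr89. The remaining 20 pairs were of genes apart, 6 of them within 20 kb of each other. Genes of these pairs that were outside the rule for naming, such as Srsf2 and Arglu1, were chosen after their values were seen. With Spearman's rho in place of r 13 pairs of genes apart were called, 6 of them among the 20. Of the pairs described next, Cst3 and C1qa, Ctss and C1qa, P2ry13 and P2ry12, and those of Malat1 were not called by rho, with a mean rho of 0.31, 0.25 and 0.36 for the first 3, 0.13 for Malat1 and Srsf2 and 0.11 for Malat1 and Arglu1.

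One set of pairs joined Cst3, the C1q chains and Ctss. Cst3 and C1qb had an r of 0.49 in TH 1, 0.43 in TH 2 and 0.55 in TH 3, Cst3 and C1qc 0.47, 0.31 and 0.36, and Cst3 and C1qa 0.33, 0.30 and 0.39. C1qb and C1qa, whose genes lie 9730 bases apart on chromosome 4, had 0.45, 0.34 and 0.38, and Ctss and C1qa 0.31, 0.32 and 0.33. C1qb with C1qc (0.54, 0.26 and 0.40) and Cst3 with Ctss (0.42, 0.46 and 0.29) fell just short of the rule in 1 TH number each. The same pairs in other cells had a mean r of 0.46 in plasma none and 0.61 in plasma high for Cst3 and C1qb, and 0.33 and 0.44 for Cst3 and C1qc. Without the cells low in Malat1 described further on, Ctss and C1qa had 0.32, 0.36 and 0.18 and were not called. Without such cells the plasma high mean was 0.45 for Cst3 and C1qb and 0.29 for Cst3 and C1qc.

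In levels, the 25% of cells with the least Cst3 (87 cells, ranked within each TH number) had a median C1qb of 4865, 4980 and 4001 CPM in TH 1, TH 2 and TH 3. The 25% with the most Cst3 (89 cells) had 7648, 8021 and 7620. These 2 sets did not overlap across TH numbers for C1qb, C1qc (3095 ± 359.5 against 4713 ± 592), C1qa (2319 ± 271.9 against 3190 ± 175.1) or Ctss (6009 ± 642 against 9580 ± 1263). These genes were picked for their r in the same cells, so the gaps restate that r and are no separate support. The share of all genes without overlap was not computed. Tmem119 differed between the sets by less than the SD over TH numbers, at 3874 ± 905 and 3837 ± 38.5 CPM. Cx3cr1 had a mean r of -0.21 with Cst3.

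The promoters of these genes are shown because the genes vary together. Each is 300 bases from RefSeq (GRCm38.p6), 250 before and 50 after the start, on the strand of the gene, with every match to GAGGAA on either strand in capitals. GAGGAA is the core of the sequence bound by PU.1, the product of Spi1. The promoters lie at chr4:136886151-136886450 (C1qb, minus strand), chr4:136892865-136893164 (C1qc, minus strand), chr2:148875463-148875762 (Cst3, minus strand) and chr3:95526536-95526835 (Ctss, plus strand). C1qa was not matched in the table.
C1qb: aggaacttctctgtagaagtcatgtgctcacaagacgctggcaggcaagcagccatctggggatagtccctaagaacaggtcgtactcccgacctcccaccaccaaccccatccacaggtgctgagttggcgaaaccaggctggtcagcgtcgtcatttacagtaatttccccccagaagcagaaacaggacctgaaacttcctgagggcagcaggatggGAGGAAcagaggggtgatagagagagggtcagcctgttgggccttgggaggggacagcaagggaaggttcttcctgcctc
C1qc: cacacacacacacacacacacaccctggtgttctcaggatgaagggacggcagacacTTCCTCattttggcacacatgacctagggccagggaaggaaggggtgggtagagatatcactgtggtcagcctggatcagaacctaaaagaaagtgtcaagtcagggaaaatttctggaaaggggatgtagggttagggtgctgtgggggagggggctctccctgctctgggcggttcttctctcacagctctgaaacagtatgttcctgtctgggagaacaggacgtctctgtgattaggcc
Cst3: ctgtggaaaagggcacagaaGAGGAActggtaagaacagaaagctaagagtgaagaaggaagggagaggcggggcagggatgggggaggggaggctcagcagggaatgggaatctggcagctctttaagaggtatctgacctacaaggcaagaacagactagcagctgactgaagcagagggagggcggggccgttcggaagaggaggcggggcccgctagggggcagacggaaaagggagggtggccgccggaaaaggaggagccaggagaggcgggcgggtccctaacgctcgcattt
Ctss: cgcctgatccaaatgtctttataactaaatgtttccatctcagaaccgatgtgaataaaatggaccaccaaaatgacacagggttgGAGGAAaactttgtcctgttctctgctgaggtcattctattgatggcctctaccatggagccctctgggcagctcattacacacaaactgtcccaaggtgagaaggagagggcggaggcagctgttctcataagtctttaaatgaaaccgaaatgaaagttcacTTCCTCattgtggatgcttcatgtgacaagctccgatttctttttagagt
All 4 promoters hold GAGGAA, at -30 in C1qb, -193 in C1qc, -230 in Cst3, and -164 and 0 in Ctss, counted from the start. Of the pair P2ry13 and P2ry12, described below, the P2ry13 promoter holds it at -48 and the P2ry12 promoter does not hold it. Among 32851 RefSeq promoters of the same length 28.3% hold this motif, and 3.2% hold the longer GAGGAAGT, which C1qc and Ctss do. A match is a description of the sequence and not a binding site.

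The purinergic receptors formed a second pair. P2ry13 and P2ry12 lie 5390 bases apart on chromosome 3 (59207892 to 59210882 and 59216272 to 59262871, minus strand), both inside the longer gene Med12l on the other strand. Their r was 0.64 in TH 1, 0.32 in TH 2 and 0.45 in TH 3, with a mean of 0.10 in plasma none and 0.38 in plasma high. The 25% of cells with the least P2ry13 had 5522, 9146 and 7696 CPM of P2ry12 and the 25% with the most had 10793, 10609 and 11292. The gap was widest in TH 1 and narrowest in TH 2. The pair was picked for its r in these cells, so the gap restates that r. Without the cells low in Malat1 the r was 0.66, 0.16 and 0.51 and the pair was not called. Gpr34 differed between the same sets, from 3272 ± 101.6 to 4927 ± 703 CPM. Med12l, which spans both receptors, had a median of 21.3 ± 25.2 CPM in the lowest and 32.4 ± 14.6 in the highest set, far below the level of either receptor.

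Genes of the mitochondrial genome varied together weakly but evenly: 26 of 27 pairs had r above 0 in all 3 TH numbers, against 12.6% of all pairs, and the median r was 0.22. The 4 microglia markers had a median r over 6 pairs of 0.32 in TH 1, but 0.07 in TH 2 and 0.06 in TH 3. The homeostatic list was likewise highest in TH 1, at 0.10 against 0.025 and 0.03. The ribosomal proteins had 0.05, 0.03 and 0.05 over 3240 pairs.

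**Figure D4:**
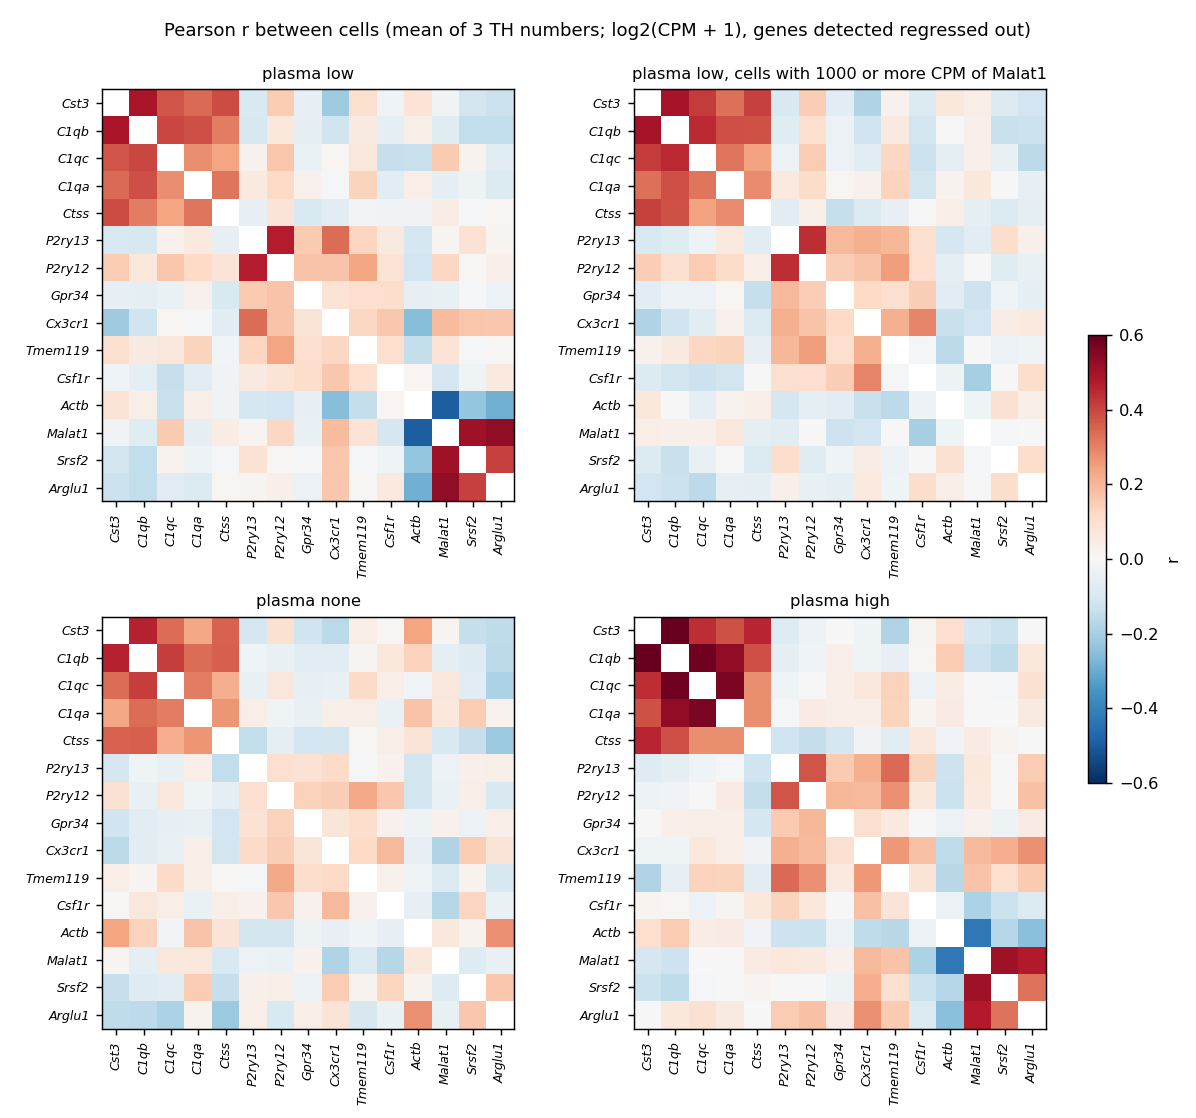
Mean r over 3 TH numbers between 15 genes, as 4 colour maps for plasma low cells, plasma low cells with at least 1000 CPM of Malat1, plasma none and plasma high. The block of Cst3, C1qb, C1qc, C1qa and Ctss is seen in all 4 maps, while the block of Malat1, Srsf2 and Arglu1 is seen in plasma low and plasma high and is gone from plasma low without the cells under that bound.

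A further set of pairs rested on 16 cells. Malat1 and Srsf2, a splicing factor of the SR family, had an r of 0.46, 0.59 and 0.48, and Malat1 and Arglu1, a nuclear protein rich in arginine and glutamate, 0.47, 0.57 and 0.55. Actb ran the other way, with an r of -0.44, -0.59 and -0.45 with Malat1. Only 2 plasma low cells lay between 500 and 2000 CPM of Malat1. A bound of 1000 CPM, set after the values were seen, divided the cells: 16 were under it (4.56%; exact Clopper-Pearson 95% interval 2.63% to 7.30%), 2 in TH 1, 8 in TH 2 and 6 in TH 3. The highest under the bound had 862.9 CPM and the lowest above it 1942. Without these cells the mean r was -0.01 for Malat1 and Srsf2, 0.00 for Malat1 and Arglu1 and -0.02 for Malat1 and Actb. Under a filter of at least 100000 reads and 1000 genes, 6 plasma low cells (2.01%) were under the bound.

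The same bound found 0 plasma none cells, which allows a share of up to 0.867%, and 14 plasma high cells (4.83%), spread as 5, 5 and 4 over the TH numbers. In plasma none the mean r of Malat1 with Srsf2 was -0.08 and with Arglu1 -0.05. Plasma low and plasma high thus had such cells in all 3 TH numbers and plasma none in none. Among cells with at least 5000 reads that failed the filter, 2 of 13 plasma low, 3 of 9 plasma high and 1 of 23 plasma none cells were under the bound.

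Many genes were read in few of the 16 plasma low cells, while Cst3, Ctsd, Actb, P2ry12 and Ctss were read in 16 of 16. Srsf2 and Arglu1 were each read in 1 of the 16, against 97.3% and 99.1% of the other plasma low cells. At 50000 reads Sf3b1, a core spliceosome protein, was read in 1 of 16 against 63.3%, Sfpq in 2 against 70.1%, and the splicing factors Luc7l3 in 2 against 62.1% and Rbm25 in 2 against 60.6%. Of 637 genes read in at least 50% of the other cells, 86 were read in at most 3 of the 16 and 29 in all 16, and the median share was 43.8% against 67.8%. The losses included genes of other functions, such as the receptor Lpar6 in 0 of 16 against 61.2% and the chaperone Hsp90ab1 in 3 against 65.7%, and other splicing-related genes were lost in part, with Rbm39 in 6 of 16 against 88.7%.

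Csf1r had a median of 6602 CPM in the 16 cells and 6162 in the others. Cst3 (30964 against 20952), Actb (17563 against 9637), Eef1a1 (5366 against 2704) and mt-Co1 (5916 against 3170) were higher in the median of the 16. Cx3cr1 was lower (3148 against 7139) and Sat1, a polyamine acetyltransferase, had a median of 0 against 2910. The 16 cells had fewer genes, a median of 901 against 2013 (866 against 1810 at equal depth), and a larger mitochondrial share, 1.36% against 0.79%. They lay in 6 of the 8 plate columns of the group, with 4 each in columns 10 and 11. What these cells are was not tested.

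**Figure D5:**
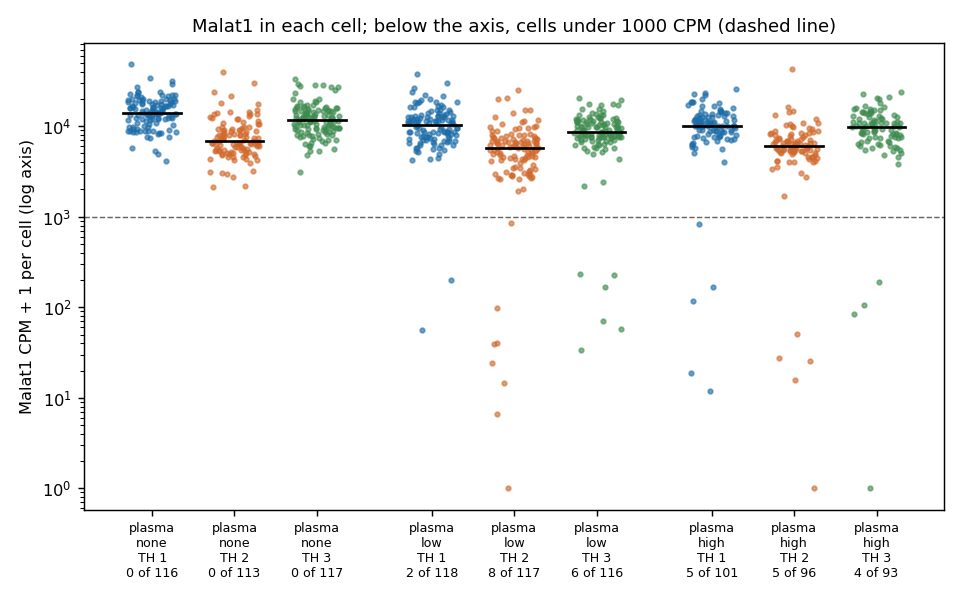
Malat1 CPM + 1 in each passing cell on a log axis, by group and TH number, with black bars for medians and a dashed line at the bound of 1000 CPM. The counts under the axis give cells below the bound: 16 among plasma low, 14 among plasma high and 0 among plasma none cells.

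Interferon-response genes were read sparsely, and a few cells carried a large part of their reads. A median of 1 of 31 interferon genes was read per cell and 89 cells (25.4%) had none, at 50000 reads. Cells with 10 or more of these genes, a bound set after the values were seen, numbered 5 (1.42%; exact Clopper-Pearson 95% interval 0.464% to 3.29%), with 25, 17, 13, 13 and 11 genes. They held 20.0% of the list's summed CPM in the group. The cell with 25 genes had 16939 CPM over the list, while the other cells had a median of 261.3.

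Bst2, the virus-tethering protein tetherin, and Ifih1, the RNA sensor MDA5, were read in 5 of these 5 cells. Rsad2, an antiviral enzyme also called viperin, was read in 3 of them and in none of the others. Ifit3b was read in 4 of the 5 and in 0.6% of the others, and Ifitm3 in 4 and 2.6%. All 5 had reads of Tmem119, P2ry12, Cx3cr1 and Csf1r, and none was under the Malat1 bound. Another 6 plasma low cells had 7 to 9 of the genes, and a bound of 8 genes gave 8 cells. By the same rule there were 3 such cells in plasma none (0.87%, interval 0.179% to 2.51%) and 4 in plasma high (1.38%, interval 0.377% to 3.49%). These intervals cover counting error only, and so few cells cannot tell whether the groups differ.

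A single cell of TH 3, also chosen after the values were seen, carried most of the class II reads. It had 4241 CPM of Cd74, the invariant chain, 3765 of H2-Ab1 and 953.6 of H2-Aa, which was 77.7%, 79.6% and 100% of the reads of these genes over all plasma low cells. The same cell had 7546 CPM of Tmem119, 3237 of P2ry12 and 8188 of Cx3cr1.

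Against plasma none, more genes were detected per plasma low cell, among them mt-Nd2, Ptma and Npc2. Shares of cells with a read were compared at 50000 reads a cell, and a gene was called where the mean difference was at least 10 percentage points with the same sign in 3 of 3 TH numbers. Of 5567 genes 4.9% were called higher in plasma low and 1 gene (0.018%) lower, and the median difference over all genes was 3.04 points. As plasma low cells had more genes at this depth in each TH number, detection differences and genes per cell move together here. The share of cells with an oligodendrocyte marker also differed, at 15.1% of plasma low cells against 11.56% of plasma none and 21.38% of plasma high cells, as did the mitochondrial share of reads, at 0.819% ± 0.085 against 0.604% ± 0.056 and 0.975% ± 0.205. Their part in the comparisons with plasma none and plasma high was not tested.

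The mitochondrial gene mt-Nd2 was read in 88.98%, 87.18% and 86.21% of plasma low cells in TH 1, TH 2 and TH 3, and in 66.38%, 60.18% and 63.25% of plasma none cells. The groups did not overlap. Ptma, which encodes prothymosin alpha, was read in 72.3% ± 5.82 against 51.4% ± 3.14, Npc2, a lysosomal cholesterol carrier, in 74.6% ± 6.17 against 55.2% ± 3.82, Creg1, a lysosomal glycoprotein, in 66.9% ± 5.90 against 48.2% ± 6.37, and Gpx4, which reduces lipid peroxides, in 45.9% ± 6.75 against 27.8% ± 7.90. The 1 gene called lower was Sfpq, a nuclear RNA-binding protein, at 67.5% ± 4.77 against 77.7% ± 4.51, and without the cells low in Malat1 it was at 70.1% and not called.

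By list, 36 of 81 ribosomal protein genes, 8 of 19 actin genes and 5 of 8 mitochondrial genes were called higher, and none lower, with median differences of 9.50, 9.54 and 13.89 points against 3.04 for all genes. With at least 5 reads asked for, 9 of 81 ribosomal genes (median 4.89 points), 4 of 19 actin genes (9.10) and 6 of 8 mitochondrial genes (13.64) were called higher, against 2.66% of all genes. Of 26 homeostatic genes none was called in either direction and the median difference was 0. With all reads this list had a median detection of 95.6% in plasma low cells. Many members were thus near the ceiling, where a difference of 10 points could hardly arise. The rule does not compare levels. Among endocytosis genes 5 of 24 and among lysosomal genes 3 of 39 were called higher, the latter near the 4.9% of all genes. In cells with 1400 to 1800 genes at equal depth, a range set after the values were seen that keeps fewer cells, 2.25% of genes were called higher and 0.808% lower. There 11 of 81 ribosomal (median 3.55 points), 3 of 19 actin (4.55) and 1 of 8 mitochondrial genes (4.85) were called higher. In the same range 1 endocytosis gene was higher and 1 lower (median 0.09), and 2 lysosomal genes were higher (median 0). Of single genes, mt-Nd2 (83.3% against 67.2%), Ptma and Npc2 remained called, and Creg1, Gpx4 and Sfpq did not.

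Against plasma high, few genes differed in detection. Of 5783 genes 9 were called higher in plasma low (0.156%) and 15 lower (0.259%), with a median difference of 0.32 points, and both comparisons use the same plasma low cells. The balance of higher and lower calls turned under other settings: 28 and 20 at 100000 reads, 19 and 13 without the cells low in Malat1, 15 and 13 without plate rows A and P, 71 and 34 without TH 2 and 46 and 43 without TH 3. Lyz2 was read in 43.2%, 42.7% and 44.8% of plasma low cells and in 57.4%, 54.2% and 59.1% of plasma high cells. The groups did not overlap in Lyz2. Apoe was read in 16.9%, 13.7% and 13.8% against 24.8%, 28.1% and 29.03%, again without overlap, and these were the 2 members of the disease-associated list called. Rpl7a (48.7% ± 12.8 against 63.3% ± 7.83), Rps18 (74.3% ± 9.09 against 87.2% ± 2.10), the membrane protein Tmem176b (65.5% ± 1.42 against 78.4% ± 2.95) and Pnisr, a splicing-associated protein (44.98% ± 7.43 against 57.7% ± 6.99), were also lower.

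Genes read in more plasma low cells were Mknk1, a kinase that phosphorylates the translation factor eIF4E (48.7% ± 8.31 against 35.3% ± 7.84), Ube2b, a ubiquitin-conjugating enzyme (33.6% ± 3.69 against 21.4% ± 2.24), Ssh2, a cofilin phosphatase (78.7% ± 7.23 against 66.5% ± 0.86), Atxn7l3b (46.4% against 34.9%) and Phgdh, which opens serine synthesis (35.3% ± 4.08 against 24.1% ± 3.46). Over all passing cells no member of the homeostatic, lysosomal, endocytosis or interferon lists was called at 1 read. Many homeostatic members were near the ceiling of detection here too. With at least 5 reads 1 of the 24 endocytosis members was called in each direction. In cells with 1400 to 1800 genes, which are fewer, 2.18% of genes were called higher and 2.21% lower. There 17 of 81 ribosomal protein genes were lower and 1 was higher. In that range 1 homeostatic gene was higher, 1 lysosomal gene was higher and 1 lower, and 1 endocytosis gene was lower. Apoe (7.9% against 29.5%), Lyz2 (36.4% against 62.2%), Rpl7a, Rps18, Pnisr, Mknk1 and Ssh2 were called there too, and Ube2b, Atxn7l3b, Phgdh and Tmem176b were not.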

How the data were processed

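Reads of single microglia from mouse brain, prepared by Smart-seq2, were analysed from the tables the authors deposited, which hold whole-number read counts per gene, 1 column a cell. In 1 column of TH 3 the deposited values are estimated counts that need not be whole, and they were rounded. The submitters' processing notes name STAR 2.5.3a, mm10, Trim Galore, bcl2fastq and Seurat. Per the file headers, the TH 2 and TH 3 columns come from alignments reduced to top hits, and TH 1 carries no such note. The counting tool and whether it used strand are not given in the sources used here, so genes that overlap share reads.

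Columns were matched to cells by well and TH number, 0 columns were unmatched, and 66 labelled cells were not analysed here. Of 384 cells labelled plasma low 371 were matched and 351 had at least 50000 reads and 500 genes (118, 117 and 116 in TH 1, TH 2 and TH 3), beside 346 plasma none and 290 plasma high cells; the ratio for variable genes used a running median over 201 genes. TPM used merged exon lengths of the annotation that matched the tables' coordinates for 99.6% of annotated genes. Shares of cells compared between groups were taken after thinning each cell to 50000 reads. Doublets were not called, and no cells were clustered. Rules for variable genes, pairs and detection stand beside their results. The rules for variable genes and for pairs were tested on simulated data. The rule for detection and the bounds on cells were not. Since no label names an animal, no p-value was computed. Named genes were the markers, the 25 most abundant genes, the 20 most and 5 least variable, the genes of the leading pairs, the 5 largest detection differences in each direction, and leading members of each list; clone-named genes were left out, and some items are not reported here. Genes outside this rule were chosen after their values were seen. The members and lists were chosen with earlier results of these data known. Alternatives covered depth, filters, pseudocounts, rank correlation, TMMwsp size factors (edgeR 4.0.16) and leaving out each TH number. Python 3.11.15 with numpy 2.4.6, pandas 2.3.3 and scipy 1.17.1 was used.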

Additional observations from a re-analysis of the deposited data

How the results depend on the processing

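The median genes per cell (1809 to 2115), the most abundant genes (19 to 25 of 25 shared) and the r of Cst3 and C1qb (0.46 to 0.52) moved little under the alternatives run. Rules that ask for 3 of 3 TH numbers ask for 2 of 2 when 1 is left out, which loosens them: 3.35% to 3.69% of genes were then variable against 2.07%, 37 to 47 pairs were apart against 20, and detection differed from plasma none for 4.85% to 9.7% of genes against 4.92% and from plasma high for 1.54% to 1.82% against 0.415%. With a mean of at least 100 CPM 4.9% of the fewer genes tested were variable, and with Spearman's rho 13 pairs were apart, 6 of them among the 20. Detection differed from plasma none for 2.68% of genes with at least 5 reads and for 3.05% in cells with 1400 to 1800 genes. It differed from plasma high for 0.623% with at least 5 reads, 0.83% at 100000 reads (28 higher and 20 lower, against 9 and 15) and 4.39% in cells with 1400 to 1800 genes, which are fewer. Without the cells low in Malat1 the r of Malat1 and Srsf2 was -0.01 against 0.51. Cells low in Malat1 numbered 6 under a filter of 100000 reads and 1000 genes, and 8 to 14 without 1 TH number, against 16. Interferon-rich cells numbered 8 with a bound of 8 genes, and 3 to 4 without 1 TH number, against 5. Where no construction is named, the cause was not tested. The exclusion of cells low in Malat1, the range of genes per cell, the count of pairs apart and all bounds on cells were chosen after seeing the data. No test, paired or not, was made: the labels name no animal, and no source says what a TH number is. Differences between groups were taken within each TH number.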
